A study of Homo sapiens with 6 samples.

Results

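CCL2, CCL5, CCL20, CCL28, CX3CL1, CXCL16 and CXCR4 were followed in 6 PC-3 tumors. The first 6 genes encode chemokines, and CXCR4 encodes a chemokine receptor. The members were listed by name, each was found as 1 of the 24000 gene entries of the deposited table, and 6 of the 7 had a mean of at least 0.5 FPKM over the tumors and were tested (CX3CL1 did not). PC-3 cells come from a human prostate carcinoma and grow without androgen. Tumors of these cells in nude mice received vehicle (n = 3) or WCE, a standardized extract of the herb Wedelia chinensis (n = 3), with a labeled duration of 10 weeks in both groups. The labels give no dose, and the study's text names more than 1 oral dose without tying any to the sequenced tumors. The hosts were male athymic nude mice obtained at 6 weeks of age. Such hosts lack mature T cells but keep myeloid cells, B cells and natural killer cells. By the study's methods, cells used to follow tumor growth carried a luciferase gene.

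Chemokines are small secreted proteins that guide cells along a gradient by binding receptors coupled to G proteins. CCL2 and CCL5 draw monocytes, macrophages and T cells, CCL20 draws cells that carry CCR6, and CCL28 is made by mucosal epithelia. CX3CL1 and CXCL16 are unusual because they are made as membrane proteins on a mucin-like stalk and become soluble when a protease cuts the stalk. CXCR4 binds CXCL12 and is known in prostate cancer for its part in homing to bone. CCL2, CCL5 and CCL20 are known targets of NFκB, the pathway about which the study asked.

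Values are FPKM (fragments scaled by transcript length and by the number of mapped fragments), so levels of different genes can be set side by side. The KRT8, KRT18, KRT19 and EPCAM entries, which mark epithelial cells, summed to between 1108 and 1386 FPKM in the 6 tumors. Within this sum, the groups overlapped in KRT8, KRT18 and KRT19 but not in EPCAM. EPCAM stood at 305, 250 and 185 FPKM with vehicle and at 180, 138 and 123 FPKM with WCE. Its log2 fold change was −0.73 (limma unadjusted p = 0.00889, adjusted p = 0.623). KLK3, a target of the androgen receptor, was listed at 0 in all 6 tumors. The table holds no counts. The steps between low values gave each tumor's depth as a share of that of vehicle replicate 3, which was 25.0% for WCE replicate 1 and 64.8% to 85.2% for the other 4 tumors. Vehicle replicate 3 and WCE replicate 1 were nearly identical. Their median absolute log2 difference over 1915 highly expressed entries was 0.0276, against 0.0950 to 0.247 for the other 14 pairs, so comparisons are also given with both left out. No entry was above 0 in WCE replicate 1 and at 0 in vehicle replicate 3, whereas 1419 entries were above 0 in vehicle replicate 3 and at 0 in WCE replicate 1. Whether these columns come from separate tumors was not tested, and if they do not, the p-values over 6 tumors count 1 tumor in both groups. Over the 7 members, the absolute log2 difference between these libraries ran from 0.0296 in CXCL16 to 0.592 in CCL2.

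RefSeq promoter sequence was at hand for only 3 members, CCL20, CCL28 and CXCR4. The sequence just before the transcription start is shown for these (build GRCh38.p14, 250 bases each, written 5′ to 3′ on the strand of the gene), because NFκB acts through such regions. Capitals mark matches, on either strand, to GGGNNNNNCC (a loose form of the NFκB site), TATAAA (the TATA box), and ACGTG or GCGTG (the core of the hypoxia response element). Where matches overlap or touch, the capitals run together.
CCL20, chr2:227813592-227813841, plus strand: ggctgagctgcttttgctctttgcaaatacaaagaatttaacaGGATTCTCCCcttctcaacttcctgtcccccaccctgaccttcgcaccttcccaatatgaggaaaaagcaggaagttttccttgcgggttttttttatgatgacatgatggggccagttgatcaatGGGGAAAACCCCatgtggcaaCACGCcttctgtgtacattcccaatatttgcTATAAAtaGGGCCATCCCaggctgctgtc
CCL28, chr5:43412392-43412641, minus strand: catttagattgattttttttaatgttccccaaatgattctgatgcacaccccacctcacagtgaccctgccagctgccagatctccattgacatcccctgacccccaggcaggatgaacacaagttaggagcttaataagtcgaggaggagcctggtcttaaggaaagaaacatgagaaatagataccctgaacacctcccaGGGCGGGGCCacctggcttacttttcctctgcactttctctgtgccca
CXCR4, chr2:136118150-136118399, minus strand: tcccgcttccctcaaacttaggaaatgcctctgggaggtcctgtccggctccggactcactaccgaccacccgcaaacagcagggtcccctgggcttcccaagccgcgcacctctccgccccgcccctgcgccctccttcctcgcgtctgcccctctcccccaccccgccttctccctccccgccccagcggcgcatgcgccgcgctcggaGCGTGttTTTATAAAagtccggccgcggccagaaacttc
The CCL20 window held the loose NFκB pattern at 3 places, 207 to 198, 81 to 70 and 21 to 12 bases before the start, with a TATA box at 29 to 24 and GCGTG on the other strand at 60 to 56. The CCL28 window held that pattern at 48 to 39 bases before the start. The window before the other RefSeq start of CCL28, not printed, held no match to it and 4 matches to ACGTG or GCGTG. The CXCR4 window held no match to it, but held GCGTG at 39 to 35 and TATAAA at 30 to 25 bases before the start, the latter overlapped by a match on the other strand at 32 to 27. The windows before the other 2 RefSeq starts of CXCR4, not printed, each held 1 match to the loose NFκB pattern. Among 35116 RefSeq windows of the same length, 54.4% held the loose NFκB pattern, 10.7% TATAAA, and 43.2% ACGTG or GCGTG. A match is a description of the letters only.

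None of the 6 members tested changed by the adjusted threshold, and CXCR4 had the largest difference. With limma on log2(FPKM + 1) and Benjamini-Hochberg adjustment over 13287 entries, 0 of 6 members had an adjusted p under 0.05, against 0.00753% of all entries, and 0 of 6 had an unadjusted p under 0.05, against 7.1%. In 0 of 6 members did all WCE-treated tumors lie on 1 side of all vehicle-treated tumors, against 12.8% of all entries. The median log2 fold change was −0.027 over the 6 members and −0.0063 over all entries. CXCR4, CCL2 and CCL28 had a positive fitted difference, and CCL20, CCL5 and CXCL16 a negative one.

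**Figure D1:**
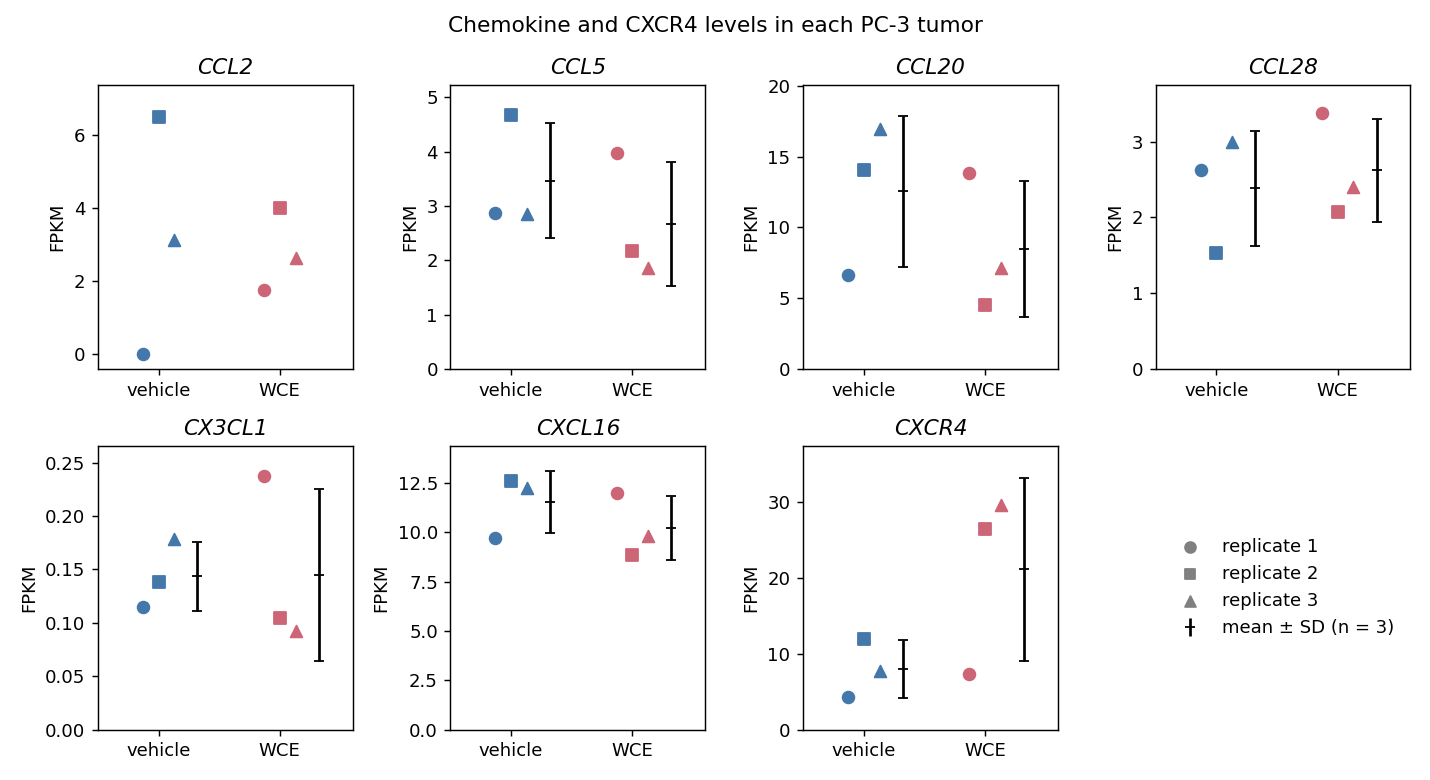
FPKM of each member (vertical axis, linear) in the 3 vehicle-treated and 3 WCE-treated tumors, with the marker giving the replicate number and the bar the mean ± SD (n = 3), which is left out for CCL2. WCE replicates 2 and 3 lie above the other 4 tumors in CXCR4, at 26.5 and 29.6 FPKM, and CCL2 is listed at 0 in vehicle replicate 1.

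CXCR4, listed on chromosome 2 from 136871919 to 136875725 with more than 1 start site, stood at 4.30, 11.9 and 7.71 FPKM in vehicle replicates 1, 2 and 3, and at 7.30, 26.5 and 29.6 FPKM in WCE replicates 1, 2 and 3. WCE replicates 2 and 3 were above every vehicle-treated tumor, whereas WCE replicate 1 lay within the vehicle range and close to vehicle replicate 3. Mean levels were 7.97 ± 3.81 FPKM with vehicle and 21.1 ± 12.1 FPKM with WCE (SD, n = 3 each). The log2 fold change was 1.18 (standard error 0.52, 95% confidence interval −0.034 to 2.40, unadjusted p = 0.0552 and adjusted p = 0.623 by limma). The exact two-sided permutation test over the 6 tumors gave p = 0.3, where the smallest possible value is 0.1. A positive difference of this size or more on the log2(FPKM + 1) scale was fitted in 30 entries, or 0.226% of those tested.

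Without the nearly identical vehicle replicate 3 and WCE replicate 1, the log2 fold change of CXCR4 was 1.81 (standard error 0.41, 95% confidence interval 0.75 to 2.86, unadjusted p = 0.00670 and adjusted p = 0.180 by limma). In this comparison of 2 tumors with 2, CXCR4 and CCL5 had an unadjusted p under 0.05, which is 2 of 6 members against 18.4% of all entries, and 0 of 6 an adjusted p under 0.05, against 0.0376%. The groups did not overlap in 2 of 6 members, again CXCR4 and CCL5, against 53.5% of all entries. In the same comparison the log2 fold change was −0.68 for CCL20, −0.23 for CXCL16, 0.63 for CCL2 and 0.095 for CCL28. Their unadjusted p by limma was 0.121, 0.204, 0.523 and 0.669 in that order. The number with an unadjusted p under 0.05 was 3 of 6 without WCE replicate 1 alone, against 15.3% of all entries, and 4 of 6 with tumors weighted by limma, against 24.1%. These weights were 4.00 for WCE replicate 3 and from 0.408 (vehicle replicate 1) to 1.44 (vehicle replicate 2) for the others, so the weighted count leaned most on WCE replicate 3.

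**Figure D2:**
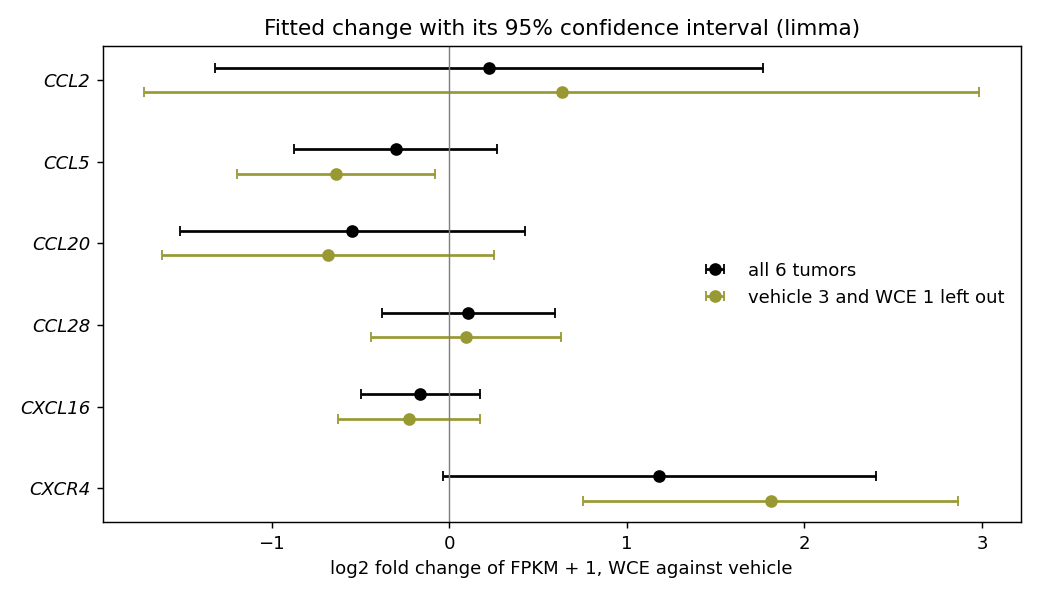
Fitted log2 fold change of FPKM + 1 in WCE-treated against vehicle-treated tumors (horizontal axis) for the 6 members tested, with bars for the 95% confidence interval from limma. The interval of CXCR4 runs from −0.034 to 2.40 with all 6 tumors and from 0.75 to 2.86 without vehicle replicate 3 and WCE replicate 1.

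The partners of CXCR4 were measured unevenly. CXCL12, its classical ligand, was listed at 0 in all 6 tumors. This entry, like those of the other ligands and receptors given here, is of the human gene and does not measure the mouse gene of the host. MIF, a cytokine that can also bind CXCR4, stood at 394, 428 and 399 FPKM with vehicle and at 406, 249 and 298 FPKM with WCE. WCE replicates 2 and 3 were below every vehicle-treated tumor in MIF, and WCE replicate 1 was not. The log2 fold change of MIF was −0.39 (standard error 0.18, limma unadjusted p = 0.0606, adjusted p = 0.623), and it was −0.59 without both nearly identical libraries (unadjusted p = 0.00690 and adjusted p = 0.180 by limma). ACKR3, listed as CXCR7, encodes a receptor that takes up CXCL12 and passes on signals through arrestins. It stood at 1.61, 2.37 and 4.96 FPKM with vehicle and at 5.02, 2.87 and 6.88 FPKM with WCE, and the groups overlapped. The log2 fold change of ACKR3 was 0.60, and 0.90 without both nearly identical libraries (limma unadjusted p = 0.125 and 0.0540).

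CD74, a chain that serves as a receptor for MIF, ranged from 0.392 to 6.45 FPKM and was above 5 FPKM in vehicle replicate 3, WCE replicate 1 and WCE replicate 3 only. Among genes that switch off or take in CXCR4, GRK2 (listed as ADRBK1), GRK6, ARRB1, ARRB2 and ITCH were tested, with unadjusted p from 0.460 to 0.894 by limma. GRK3 (listed as ADRBK2) was under the filter. The tested entries of this list numbered 7, since it also held MIF and CD74. Of these, 5 had a positive and 2 a negative fitted difference. By limma, 0 had an unadjusted p under 0.05, against 7.1% of all entries. The median log2 fold change was 0.080, against −0.0063 over all entries.

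CCL20, listed on chromosome 2 from 228678558 to 228682280, had the largest negative fitted difference among the members. Its level was 6.63, 14.0 and 17.0 FPKM in vehicle replicates 1, 2 and 3, and 13.8, 4.51 and 7.11 FPKM in WCE replicates 1, 2 and 3. The groups overlapped, since vehicle replicate 1 was below WCE replicates 1 and 3. The means were 12.5 ± 5.32 and 8.49 ± 4.82 FPKM (SD, n = 3 each). The log2 fold change was −0.55 (standard error 0.42, 95% confidence interval −1.52 to 0.43, unadjusted p = 0.229 and adjusted p = 0.674 by limma), and the exact permutation test gave p = 0.4. A negative difference of this size or more was fitted in 1.17% of entries. The human entry of CCR6, the receptor of CCL20, was listed at 0 in all 6 tumors.

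CCL5, listed on chromosome 17 from 34198496 to 34207377, stood at 2.86, 4.68 and 2.85 FPKM with vehicle and at 3.97, 2.18 and 1.86 FPKM with WCE. WCE replicates 2 and 3 were below every vehicle-treated tumor, and WCE replicate 1 was above 2 of them. The log2 fold change was −0.30 (standard error 0.25, 95% confidence interval −0.87 to 0.27, unadjusted p = 0.257 and adjusted p = 0.690 by limma), with p = 0.4 by the exact permutation test. When both nearly identical libraries were left out, it was −0.64 (unadjusted p = 0.0321 and adjusted p = 0.234 by limma).

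CCL2, on the same chromosome from 32582296 to 32584220, was listed at 0, 6.50 and 3.13 FPKM in vehicle replicates 1, 2 and 3, and at 1.74, 3.99 and 2.62 FPKM in WCE replicates 1, 2 and 3. The vehicle-treated tumors thus held both the lowest and the highest value. Of all 24000 entries, 10 were at 0 in exactly 1 tumor and at 1 FPKM or more in the other 5. By name, 8 of these were small RNAs, and of the remaining entries CCL2 alone had its 0 in vehicle replicate 1. Genes in general use were not at 0 there, with 2195 FPKM for GAPDH and 9.38 FPKM for TBP.

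The fitted difference in CCL2 depended on single tumors. The log2 fold change was 0.22 with all 6 tumors (standard error 0.66, 95% confidence interval −1.32 to 1.77, unadjusted p = 0.743 and adjusted p = 0.935 by limma), and −0.60 without vehicle replicate 1 (unadjusted p = 0.120 and adjusted p = 0.788 by limma). Leaving out vehicle replicate 2 gave 0.85, and leaving out WCE replicate 2 gave 0.0032. The exact permutation test over all 6 tumors gave p = 0.9. These values come from entries of human genes and do not measure the mouse Ccl2 of the host, although conserved mouse fragments can align to a human gene. The submitters' processing notes list both hg19 and mm10, with no account of how the builds were used.

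CCR2, the main receptor of CCL2, was above 0 in 3 of 6 tumors and reached 0.0740 FPKM. CCR3, a receptor of CCL5, was above 0 in vehicle replicates 2 and 3 and reached 0.0806 FPKM. CCR1 was the 1 receptor of the 8 listed that passed the filter. It stood at 0.343, 0.392 and 0.814 FPKM with vehicle and at 1.18, 0.130 and 0.300 FPKM with WCE, highest in the nearly identical libraries, vehicle replicate 3 and WCE replicate 1. Its log2 fold change was −0.027 (adjusted p = 0.980 by limma).

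**Figure D3:**
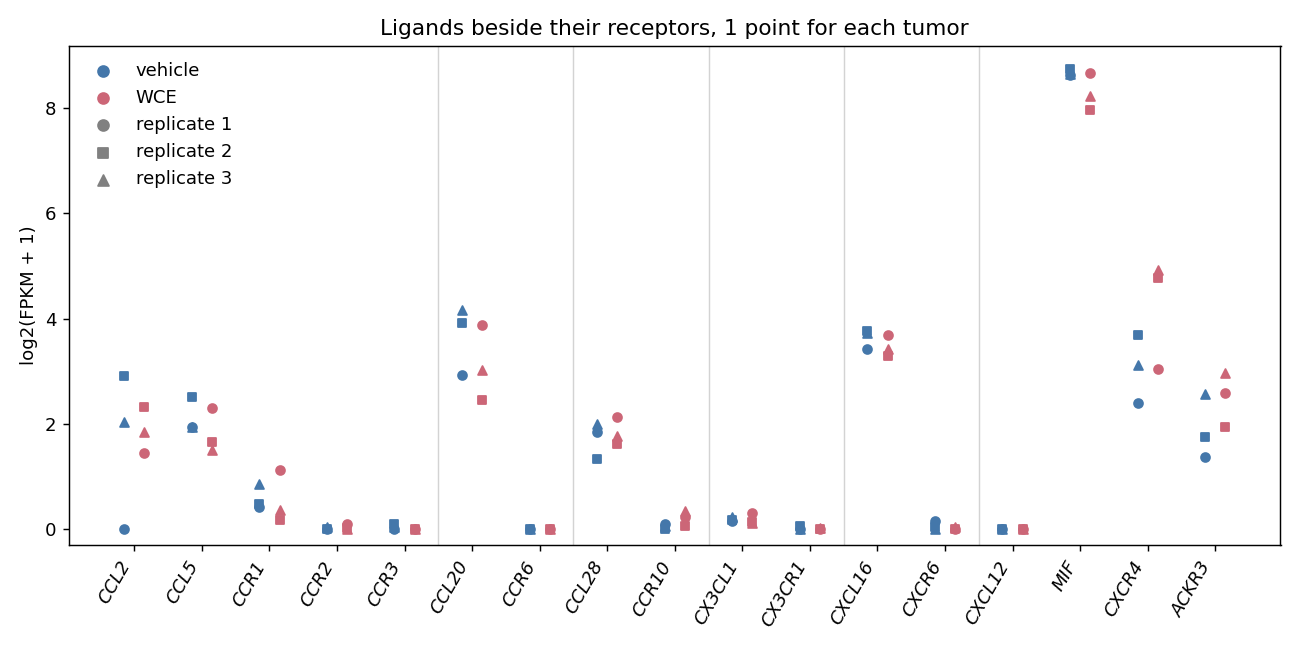
Level as log2(FPKM + 1) (vertical axis) of the chemokines beside their receptors, with blue points for vehicle-treated and red points for WCE-treated tumors and the marker giving the replicate number. The human entries of CCR6 and CXCL12 lie at 0 in all 6 tumors, while MIF is the highest of the genes plotted.

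CCL28, listed on chromosome 5 from 43381600 to 43412488, stood at 2.62, 1.54 and 2.99 FPKM with vehicle and at 3.38, 2.08 and 2.40 FPKM with WCE. The groups overlapped, with WCE replicate 1 above every vehicle-treated tumor. The log2 fold change was 0.11 (95% confidence interval −0.38 to 0.60, adjusted p = 0.879 by limma). CCR10, a receptor of CCL28, was at or under 0.278 FPKM in each tumor.

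CXCL16, on chromosome 17 from 4634723 to 4643223, was the steadiest of the members tested. It stood at 9.73, 12.6 and 12.3 FPKM with vehicle and at 12.0, 8.86 and 9.80 FPKM with WCE. WCE replicate 2 was below every vehicle-treated tumor, and the groups overlapped. The means were 11.5 ± 1.57 and 10.2 ± 1.61 FPKM (SD, n = 3 each), and the log2 fold change was −0.16 (95% confidence interval −0.50 to 0.17, adjusted p = 0.722 by limma). The listed locus of CXCL16 is shared with MED11. The library kit keeps the strand, but whether the counting used it is not stated. CXCR6, the receptor of CXCL16, reached 0.122 FPKM at most.

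CX3CL1, on chromosome 16 from 57406414 to 57418956, was the lowest member, at 0.115, 0.138 and 0.178 FPKM with vehicle and 0.238, 0.105 and 0.0927 FPKM with WCE. Multiplied by the relative depth of each tumor, these values fell on 5, 7 and 12 steps of a common size in vehicle replicates 1, 2 and 3, and on 4, 6 and 5 steps in WCE replicates 1, 2 and 3, each within 0.00263 of a whole number. The highest FPKM, in WCE replicate 1, thus stood for the fewest steps. In the fit without a filter on low values the log2 fold change was −0.00024 (95% confidence interval −0.15 to 0.15, adjusted p = 1 by limma). CX3CR1, its receptor, was above 0 in 2 tumors and reached 0.0416 FPKM.

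The enzymes that cut these ligands were well expressed. ADAM10 and ADAM17, which release CX3CL1 and CXCL16 from the membrane, stood at 9.78 to 17.3 FPKM and 15.3 to 18.2 FPKM over the 6 tumors. DPP4, which trims the first residues of CCL5 and CXCL12, stood at 15.5 to 26.7 FPKM. The fitted difference was negative in 3 of 3, with log2 fold changes of −0.32 for ADAM10, −0.095 for ADAM17 and −0.28 for DPP4. By limma, the unadjusted p was 0.0897, 0.383 and 0.0934 in the same order. For ADAM10, 12.3 FPKM in vehicle replicate 2 was below 14.0 FPKM in WCE replicate 1, so the groups overlapped.

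Atypical receptors bind chemokines without coupling to G proteins. ACKR2, listed as CCBP2, clears inflammatory CC chemokines such as CCL2 and CCL5, and it was the 1 of 16 tested pathway entries whose groups did not overlap, against 12.8% of all entries. It stood at 0.793, 1.21 and 0.829 FPKM with vehicle and at 0.662, 0.603 and 0.744 FPKM with WCE, and its log2 fold change was −0.21 (unadjusted p = 0.173 and adjusted p = 0.651 by limma, standard error 0.14). CCRL2, which binds chemerin, ranged from 3.34 to 5.09 FPKM with overlapping groups, and ACKR1 (listed as DARC) and ACKR4 (listed as CCRL1) were under the filter.

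The human entries of other chemokines of the CC and XC families were mostly at or near 0. Of 25 entries found, 15 were at 0 in all 6 tumors and 2 passed the filter. CCL26, an eosinophil attractant, ranged from 2.71 to 4.97 FPKM with vehicle and from 1.90 to 4.31 FPKM with WCE, and CCL25, a thymic and intestinal chemokine, from 0.702 to 1.27 FPKM and from 0.138 to 0.952 FPKM. By limma, the unadjusted p was 0.461 for CCL26 and 0.301 for CCL25. Over all 5 pathway lists, 16 of 50 entries passed the filter. Of these, 6 had a positive and 10 a negative fitted difference, and 0 had an unadjusted p under 0.05 by limma, against 7.1% of all entries. Their median log2 fold change was −0.085, against −0.0063 over all entries.

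Ordered by their mean in vehicle-treated tumors, the members ran CCL20, CXCL16, CXCR4, CCL5, CCL2, CCL28 and CX3CL1. In WCE-treated tumors the order was CXCR4, CXCL16, CCL20, CCL2, CCL5, CCL28 and CX3CL1. Neighbors in these orders overlapped in their ranges except that CCL28 lay above CX3CL1 in both groups and CCL20 above CCL2 in WCE-treated tumors.

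For the members whose log2(FPKM + 1) ranged over at least 1 unit across the tumors, the entries with the most similar pattern were sought by the root mean square difference after each entry was centered on its mean over the 6 tumors. STC1, which encodes the secreted glycoprotein stanniocalcin, was nearest to CXCR4, at 0.171. It stood at 6.62, 13.4 and 12.7 FPKM with vehicle and at 12.2, 39.1 and 41.1 FPKM with WCE, and LOC388630 came next at 0.297. IL1B and SERPINA3 were nearest to CCL20, both at 0.128. IL1B, the cytokine interleukin 1 beta, stood at 38.0, 59.6 and 70.5 FPKM with vehicle and at 69.9, 23.8 and 35.9 FPKM with WCE. MILR1 and TCN1 were nearest to CCL2, at 0.413 and 0.429, and both had their lowest value in vehicle replicate 1. These are descriptions over 6 tumors, 2 of which were nearly identical.

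**Figure D4:**
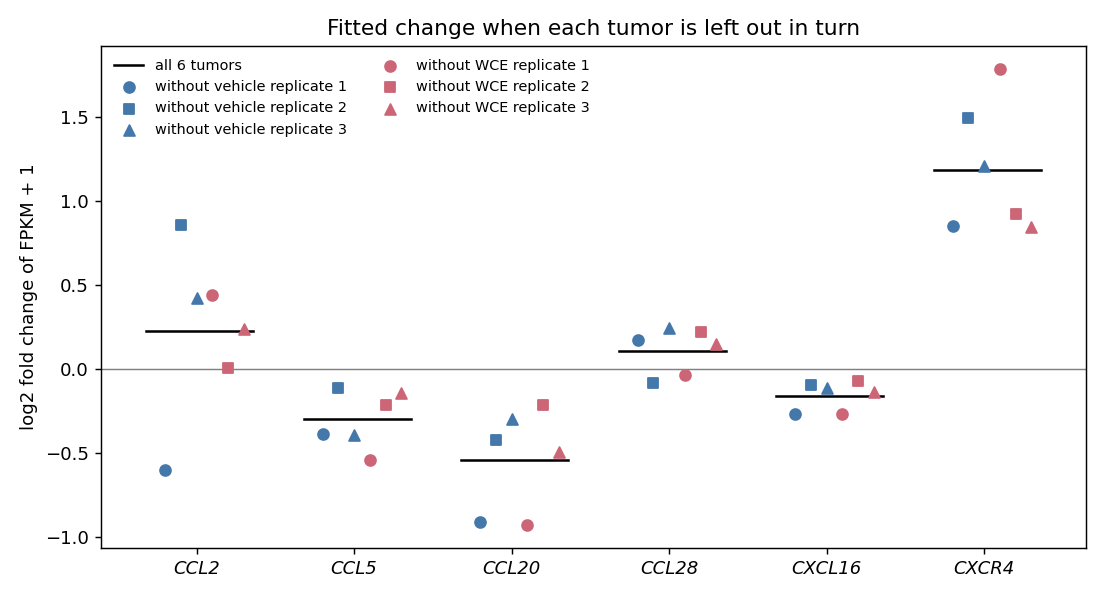
Fitted log2 fold change of FPKM + 1 (vertical axis) for the 6 members tested, with a line for all 6 tumors and a point for each fit that leaves out 1 tumor. CXCR4 lies between 0.84 and 1.79 in these fits, and CCL2 between −0.60 and 0.85.

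The hosts were mice, so their cells can add to these human entries only where mouse fragments align to them. The markers below therefore do not count host cells. In bulk values, fewer cells of a type also cannot be told apart from less RNA per cell. CD68, which marks macrophages and was the 1 leukocyte marker of 10 that passed the filter, stood at 25.3, 30.4 and 40.0 FPKM with vehicle and at 38.7, 39.6 and 43.9 FPKM with WCE. WCE replicate 1 was below vehicle replicate 3, and the log2 fold change of CD68 was 0.37 (limma unadjusted p = 0.0562, adjusted p = 0.623). It was 0.57 without both nearly identical libraries (limma unadjusted p = 0.00712, adjusted p = 0.182). The other 9 leukocyte markers summed to 0.507 to 1.52 FPKM with vehicle and to 0.854 to 1.63 FPKM with WCE, with CD3E at 0 throughout. No single value among them exceeded 0.666 FPKM, so they did not share the level of CD68. The 6 endothelial markers summed to 1.20 to 3.37 FPKM and 3.21 to 7.60 FPKM. Among them, KDR stood at 0.216, 0.247 and 0.529 FPKM with vehicle and at 0.559, 1.59 and 5.12 FPKM with WCE. All WCE-treated tumors were above all vehicle-treated tumors in KDR, with 0.559 against 0.529 FPKM in the nearly identical libraries. KDR was highest in the tumors that were highest in CXCR4. PECAM1 was the other endothelial marker that passed the filter. It stood at 0.860, 2.95 and 2.61 FPKM with vehicle and at 2.48, 2.05 and 2.37 FPKM with WCE, and the groups overlapped. The log2 fold change was 1.14 for KDR and 0.14 for PECAM1 (limma unadjusted p = 0.0345 and 0.613, adjusted p = 0.623 and 0.877). CDH5 was at or under 0.0768 FPKM and EMCN at 0 in each tumor. The 6 fibroblast markers summed to 42.1 to 56.4 FPKM and 12.8 to 55.9 FPKM. Most of this was COL1A1 (10.4 to 45.7 FPKM over the 6 tumors) and COL3A1 (1.81 to 11.7 FPKM), both lowest in WCE replicate 2. COL1A2, PDGFRB and DCN did not exceed 0.628 FPKM in any tumor, and LUM reached 3.15 FPKM. LUM had a log2 fold change of −0.85 (limma unadjusted p = 0.0308, adjusted p = 0.623), and its groups overlapped. The part of these cells in the values of the members was not tested.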

How the data were processed

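Stranded mRNA libraries of 6 PC-3 tumors (3 vehicle, 3 WCE) had been sequenced. The authors deposited FPKM values per gene entry and tumor. The submitters' processing notes list TopHat2 2.0.13, Cufflinks, hg19 and mm10 without roles, and the annotation, filters and scaling are not given in the sources used here. Loci are those of the table, counted from 1.

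The labels tie each column to its tumor. Entries with a mean of at least 0.5 FPKM (13287 of 24000) were compared on log2(FPKM + 1), a scale that understates changes of low genes, with limma 3.58.1 in R 4.3.3 (mean-variance trend, two-sided, Benjamini-Hochberg threshold 0.05). The fit was tried on simulated data with independent tumors, a common SD and changes larger than those fitted in the members. That trial does not bear on the spread of the members or on the nearly identical libraries. Python 3.11.15, pandas 2.3.3, scipy 1.17.1 and matplotlib 3.10.9 were used otherwise. Older symbols came from RefSeq, whose promoter table held 3 of the 7 members. Only relative depth is known, and counting intervals were therefore not computed. Labels do not state whether tumors came from separate mice, although the series' design text calls them individual, so p-values measure the spread between these samples.

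The members and lists were chosen with earlier results of these data known. Every member is named, with pathway genes that passed the filter (some listed genes are not reported here), and the 2 entries nearest in pattern to each member whose log2 range reached 1. GAPDH and TBP were named after their values were seen. Alternatives were another pseudocount, no filter, 2 scalings, array weights, a replicate block and tumors left out.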

Additional observations from a re-analysis of the deposited data

How the results depend on the processing

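The number of tested members with an adjusted p under 0.05 by limma was 0 in each alternative run, and their adjusted p over these alternatives ran from 0.126 (CXCR4) to 1 (CCL2 and CCL28). Counts at an unadjusted p under 0.05 moved more. Among members the count was 0 with all 6 tumors (against 7.1% of all entries) and 4 with array weights (CXCR4, CCL5, CCL20 and CXCL16, against 24.1%). It was 2 when the nearly identical libraries (vehicle replicate 3 and WCE replicate 1) were dropped (against 18.4%), and from 0 to 3 with 1 tumor left out. It was 3 without WCE replicate 1 (against 15.3% of all entries), 1 without vehicle replicate 2 (CXCR4, against 2.61%) and 0 without any 1 of the other 4 tumors. Among pathway entries it was 0 with all 6 tumors, 2 of 16 with array weights (ACKR3 and MIF, against 24.1% of all entries), 1 of 16 with both libraries left out (MIF, against 18.4%), and from 0 to 2 with 1 tumor left out. It was 2 without WCE replicate 1 (MIF and ADAM10, against 15.3%) and 2 without vehicle replicate 3 (ACKR3 and CD74, against 1771 of 13287 entries). It was 1 without vehicle replicate 2 (ADAM10, against 2.61%) and 1 without WCE replicate 2 (ACKR3, against 235 of 13287 entries). Members whose groups do not overlap numbered 0 with all 6 tumors (against 12.8% of all entries), 2 with both libraries left out (against 53.5%), and from 0 to 2 with 1 tumor left out. They numbered 2 without vehicle replicate 1 (against 20.4% of all entries) and 2 without WCE replicate 1 (against 37.8%).

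The replicate block gave 1 member with an unadjusted p under 0.05 (CXCR4, adjusted p = 0.620, against 7.89% of all entries) and 2 pathway entries (ACKR3 and ADAM10). Tumors of the same number had a mean correlation of −0.058 in their distances from their group's mean (3 pairs, −0.24 to 0.16). For different numbers it was 0.028 (6 pairs, −0.33 to 0.36), with the highest between vehicle replicate 3 and WCE replicate 1. These few values are tied by the centering within groups, so they cannot decide whether the numbers pair the tumors.

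CCL2 moved from 0.22 to 1.09 on the log2 scale with a pseudocount of 0.1, turned to −0.28 with array weights, and ranged from −0.60 to 0.85 with 1 tumor left out. CCL28 ranged from −0.087 to 0.24 in those fits, turning without vehicle replicate 2 and without WCE replicate 1. CXCR4 stayed above 0 (0.84 to 1.79), and CCL20 (−0.93 to −0.21), CCL5 (−0.54 to −0.11) and CXCL16 (−0.27 to −0.073) below 0. The cause was not tested. Upper-quartile scaling moved the median log2 fold change of all entries from −0.0063 to 0.017 and turned no member. The table holds no counts, so depth limits are known only in relative terms.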
